A study of Mus musculus with 12 samples.

Results

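Coinhibitory receptors outside the PD-1 and CTLA-4 families, with the nectin-like ligand of 3 of them, were examined in mouse A20 tumors after intratumoral injection of a TLR4 agonist. The selection named 8 genes, of which Lag3, Havcr2 (TIM-3), Tigit, Btla, Cd96, Cd160 and Pvr, 7 in all, were taken by symbol from a table of 770 genes. The remaining gene, Cd226, was not analysed here. A20 is a B-cell lymphoma line of Balb/c mice, and every tumor grew under the skin of a female Balb/c mouse that had an intact host immune system. The labels give no age. Tumors that had grown for about 7 days received PBS (4 mice), SE (4 mice), a 2% stable oil emulsion without agonist, or GLA-SE (4 mice), the synthetic TLR4 agonist glucopyranosyl lipid A at 10 µg in 50 µl of the same emulsion, which the study also calls G100. All tumors were injected 3 times, every other day, and taken 2 h after the last injection. RNA of whole tumors was measured on an nCounter panel of mouse immune genes, where barcoded probes are counted without amplification, and 1 mouse gave 1 tumor and 1 sample.

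These receptors sit mainly on T cells and natural killer (NK) cells and dampen their activation once a ligand is bound. LAG-3 binds MHC class II, and galectin-3 (Lgals3) is another of its ligands. TIM-3 binds CEACAM1 and HMGB1 among others. BTLA, which B cells also carry, and CD160 share the ligand HVEM (Tnfrsf14), whose other partner is LIGHT (Tnfsf14). TIGIT, CD96 and the activating receptor CD226 compete for PVR (CD155), an adhesion molecule of the nectin-like family that tumor, stromal and myeloid cells can carry, and TIGIT also binds nectin-2 (Pvrl2 on this panel). Activated T cells raise several of these receptors together, so they serve both as signs of activation and of exhaustion.

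In the RefSeq annotation of GRCm38.p6, Lag3 lies on chromosome 6 (124904359 to 124912434), Havcr2 on chromosome 11 (46454931 to 46481255), Cd160 on chromosome 3 (96798763 to 96829351) and Pvr on chromosome 7 (19903578 to 19921143). Tigit (43626137 to 43665125), Btla (45223705 to 45252895) and Cd96 (46035652 to 46120248) all lie on chromosome 16. RefSeq promoter windows were matched for 5 of the 8 genes, 6 windows in all, and Lag3, Pvr and Cd226 were not matched. The 250 bases before the start are shown for Havcr2, which passed the test below in GLA-SE against PBS tumors, and for Cd160, which did not. Both windows lie outside the annotated gene, at chr11:46454681-46454930 on the plus strand and chr3:96829352-96829601 on the minus strand. Capitals mark matches on either strand to 5 motifs of factors that act in activated lymphocytes. These were AP-1 (TGANTCA), NFAT (GGAAA), RUNX (TGTGGT), the STAT site GAS (TTCNNNGAA) and NF-kB, by fixed letters narrower than its consensus. Other forms of the NF-kB consensus were not searched.
Havcr2: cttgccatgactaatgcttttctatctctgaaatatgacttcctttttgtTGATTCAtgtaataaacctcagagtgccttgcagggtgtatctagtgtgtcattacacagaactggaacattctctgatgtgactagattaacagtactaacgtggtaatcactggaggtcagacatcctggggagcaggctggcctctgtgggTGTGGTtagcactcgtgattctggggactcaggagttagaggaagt
Cd160: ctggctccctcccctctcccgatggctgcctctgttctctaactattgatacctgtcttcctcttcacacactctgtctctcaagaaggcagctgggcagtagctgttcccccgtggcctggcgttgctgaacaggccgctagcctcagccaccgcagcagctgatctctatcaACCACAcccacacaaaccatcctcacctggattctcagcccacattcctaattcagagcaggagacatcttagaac
The Havcr2 window held AP-1 letters 200 bases before the start, found in 6.75% of 32851 windows, and RUNX letters 46 bases before it. The Cd160 window held RUNX letters 76 bases before the start and no other match. RUNX letters stood once in each of the 6 windows of these 5 genes, against 14% of all windows. Of the 6 windows 3 lie inside the annotated gene, those of Tigit and Btla and a second window of Cd160. Whether these genes hold more RUNX letters than others was not tested. The Tigit window held 2 NFAT matches (55.6% of all windows hold at least 1), the Cd96 window held 4 and a GAS match (7.02% of all windows), a second Cd160 window held 1 of each, and none of the 6 held the NF-kB letters (1.21% of all windows). No matches overlapped. These are letter matches, not measured sites.

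Total counts were 812522 to 1086462 in PBS tumors, 810260 to 1268512 in SE tumors and 1186487 to 1612415 in GLA-SE tumors. Counts were scaled to 16 of the panel's 20 reference genes, whose geometric mean was 1972 to 2558 in PBS tumors and 1693 to 1932 in GLA-SE tumors but 927 to 2806 in SE tumors, with SE replicate 4 at the low end. Groups were compared over the other 750 genes with the quasi-likelihood test of edgeR, with p-values adjusted over all 750 (Benjamini-Hochberg). In GLA-SE against PBS tumors 513 of 750 genes passed an adjusted p of 0.05 as higher and 3 as lower, with a panel median log2 fold change of 0.90, so most of the panel rose relative to the reference genes. With TMM scaling, which places the panel median near 0 (−0.01), 148 genes were higher and 168 lower, and with scaling to the panel's median count (panel median −0.40) 61 were higher and 307 lower. Every rise below is therefore relative to the reference genes. B cell markers (8 genes), the defining genes of A20, summed to 14570 to 24076 normalized counts over the 12 tumors. By group this was 20572 to 24076 in PBS tumors, 14570 to 23436 in SE tumors and 17008.5 to 19794 in GLA-SE tumors. Every GLA-SE tumor was thus below every PBS tumor. T cell markers (Cd3d, Cd3e, Cd3g, Cd2, Cd5 and Cd6) summed to 706 to 2144 normalized counts in PBS tumors, 2097 to 2968 in GLA-SE tumors and 617 to 1057 in SE replicates 1 to 3, but 4399 in SE replicate 4, the highest of all. GLA-SE replicate 3 stood apart in its neutrophil markers (5 genes), which summed to 9291 against 816 to 2200.5 in the other GLA-SE tumors. None of these marker genes was at 0 in any group. In bulk tumors, fewer T cells and less RNA per T cell cannot be told apart. The receptor and ligand results are therefore also given after scaling to the 6 T cell markers. For Pvr and the partner genes this is only a ratio to those markers, and which cells carry their RNA was not tested. With T cell marker scaling the panel median log2 fold change was 0.03 in GLA-SE against PBS, 0.69 in SE against PBS and −0.76 in GLA-SE against SE tumors.

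GLA-SE against PBS asks what the full formulation did to these genes. Relative to the reference genes, 5 of the 7 genes were higher in GLA-SE tumors, Lag3, Tigit, Havcr2, Btla and Pvr, at fold changes of 1.39 to 2.74, where 68.4% of the panel was also called higher and 0.4% lower. Cd96 and Cd160 did not pass the test. With all 12 tumors in 1 fit edgeR called only Lag3 and Tigit. Panel median scaling turned all but Pvr below 0 and called Btla and Cd96 lower, and TMM turned Havcr2, Btla, Cd96 and Cd160 below 0 and called Btla lower, so that 0 of the 7 were called higher by edgeR with either scaling. The median log2 fold change of the 7 was 0.68, below the 0.90 of all genes tested. The groups did not overlap for Lag3, Tigit, Havcr2 and Pvr, against 63.7% of all genes with every GLA-SE tumor above every PBS tumor. None of the 7 was called after scaling to the T cell markers by edgeR, and 0 had an unadjusted p under 0.05 there (DESeq2 was not run on that scale), while 6.99% of 744 genes were called higher and 0.538% lower.

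Lag3, the MHC class II receptor, had 268, 119, 185 and 242 normalized counts in PBS replicates 1 to 4, 150.2, 151, 231 and 227 in SE tumors, and 401, 427, 397 and 406 in GLA-SE tumors. The GLA-SE tumors lay within a narrow band above all 8 other tumors, and the PBS and SE tumors overlapped. GLA-SE tumors averaged 408 ± 13.3 (SD, n = 4) and PBS tumors 203 ± 66.2, which put the log2 fold change at 1.00 with a standard error of 0.24 (adjusted p = 0.00648 by edgeR). This was the only gene of the 7 whose deposited, unscaled counts also did not overlap between these groups, as for 44.7% of all genes. Per T cell marker count its log2 fold change was 0.25, with a 95% interval of −0.49 to 0.99.

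Tigit, the receptor for PVR and nectin-2, had 127, 65.7, 90.7 and 137 normalized counts in PBS tumors, 58.5, 75.1, 131 and 111 in SE tumors, and 206, 171, 218 and 232 in GLA-SE tumors. Again every GLA-SE tumor was above all 8 others. The GLA-SE mean was 207 ± 25.9 (SD, n = 4) against 105 ± 33.1 in PBS tumors, which put the log2 fold change at 0.97 with a standard error of 0.25 (adjusted p = 0.00907 by edgeR). Per T cell marker count it was 0.18 (95% interval −0.59 to 0.96).

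Havcr2, the gene of TIM-3, had few counts, 13 to 31 deposited counts per tumor. Its normalized counts were 16.7, 17.4, 16.6 and 14.0 in PBS tumors, 15.2, 13.7, 28.3 and 31.3 in SE tumors, and 31.0, 20.4, 33.1 and 19.0 in GLA-SE tumors. The PBS tumors were all low, and the SE tumors split into 2 at the PBS level and 2 at the upper GLA-SE level. The log2 fold change of GLA-SE against PBS tumors was 0.68 (standard error 0.23, adjusted p = 0.029 by edgeR). Of 8 fits, each without 1 tumor, 3 still called it, and per T cell marker count it was −0.24 (95% interval −1.13 to 0.66). A filter of 20 counts in 4 of 8 tumors left Havcr2 out of this comparison, and 4 members were then called by edgeR.

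Btla, shared by B and T cells, had 492, 513, 529.6 and 524 normalized counts in PBS tumors, 705, 739, 675 and 553 in SE tumors, and 658, 694, 978 and 523 in GLA-SE tumors. GLA-SE replicate 4 lay inside the PBS range and replicate 3 stood highest, so these groups overlapped. The log2 fold change was 0.47 with a standard error of 0.18 (adjusted p = 0.0453 by edgeR), the smallest among the 5 called. Without GLA-SE replicate 3 it was 0.28 (adjusted p = 0.0701 by edgeR), and it stayed called without a tumor only when GLA-SE replicate 4 was left out (0.59). Its direction turned to −0.86 with panel median scaling (adjusted p = 0.00183 by edgeR) and −0.47 with TMM (adjusted p = 0.0303 by edgeR), both called lower, and to −0.48 per T cell marker count (95% interval −1.27 to 0.30).

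Cd160, the other receptor of HVEM, had 50.0, 26.1, 31.7 and 64.1 normalized counts in PBS tumors, 19.3, 26.4, 28.3 and 73.0 in SE tumors, and 65.0, 51.6, 46.8 and 81.4 in GLA-SE tumors. The groups overlapped, with PBS replicates 1 and 4 reaching the GLA-SE range. The log2 fold change of GLA-SE against PBS tumors was 0.51 (95% interval −0.23 to 1.25, adjusted p = 0.184 by edgeR). Per T cell marker count it was −0.24 (95% interval −1.07 to 0.59).

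Cd96, which binds PVR, had 41.2, 31.9, 28.0 and 30.4 normalized counts in PBS tumors, 15.2, 24.3, 28.3 and 60.5 in SE tumors, and 36.0, 42.0, 62.8 and 53.9 in GLA-SE tumors. Only GLA-SE replicate 1 fell below the highest PBS tumor. The log2 fold change was 0.57 with a standard error of 0.23 (adjusted p = 0.0566 by edgeR), which just missed the threshold. It passed when PBS replicate 1 (0.69, adjusted p = 0.0372) or GLA-SE replicate 1 (0.69, adjusted p = 0.0336) was left out, and by DESeq2 (adjusted p = 0.0498). Per T cell marker count it was −0.32 (95% interval −1.17 to 0.52).

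Pvr, the shared ligand of TIGIT, CD96 and CD226, had the largest fold change of the 7 genes in GLA-SE against PBS tumors. It had 70.6, 58.9, 49.1 and 73.2 normalized counts in PBS tumors, 44.1, 43.3, 125 and 259 in SE tumors, and 87.0, 171, 301 and 131 in GLA-SE tumors. All GLA-SE tumors exceeded all PBS tumors, although GLA-SE replicate 1 did so by little and replicate 3 stood far above. The means were 173 ± 92.4 (SD, n = 4) and 62.9 ± 11.1, which put the log2 fold change at 1.45 with a standard error of 0.37 (adjusted p = 0.00832 by edgeR). Without GLA-SE replicate 3 it was 1.04 (adjusted p = 0.00912 by edgeR), and per T cell marker count 0.56 (95% interval −0.31 to 1.42). Monocyte and macrophage markers (6 genes) and endothelial and fibroblast markers (7 genes) were summed for each tumor. Both lists were higher in every GLA-SE tumor than in every PBS tumor, as were 63.7% of all genes. The first summed to 2659 to 3835 normalized counts in PBS tumors and 8144 to 19191 in GLA-SE tumors, highest in GLA-SE replicate 3, and to 2548 and 2138 in SE replicates 1 and 2 against 11275 and 17261 in replicates 3 and 4. The second summed to 4092 to 9344 in PBS tumors and 18558 to 27131 in GLA-SE tumors, highest in replicate 2, with replicate 3 at 22804. In SE replicates 1 to 4 it was 3503, 4362, 28724 and 123031, where replicate 4 stood far above all other tumors. Neutrophil markers (5 genes) summed to 184 to 204 in PBS tumors and 816 to 9291 in GLA-SE tumors, highest in replicate 3. In SE replicates 1 to 4 they summed to 180, 149, 617 and 1124. The part of these cells in the Pvr values was not tested.

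**Figure D1:**
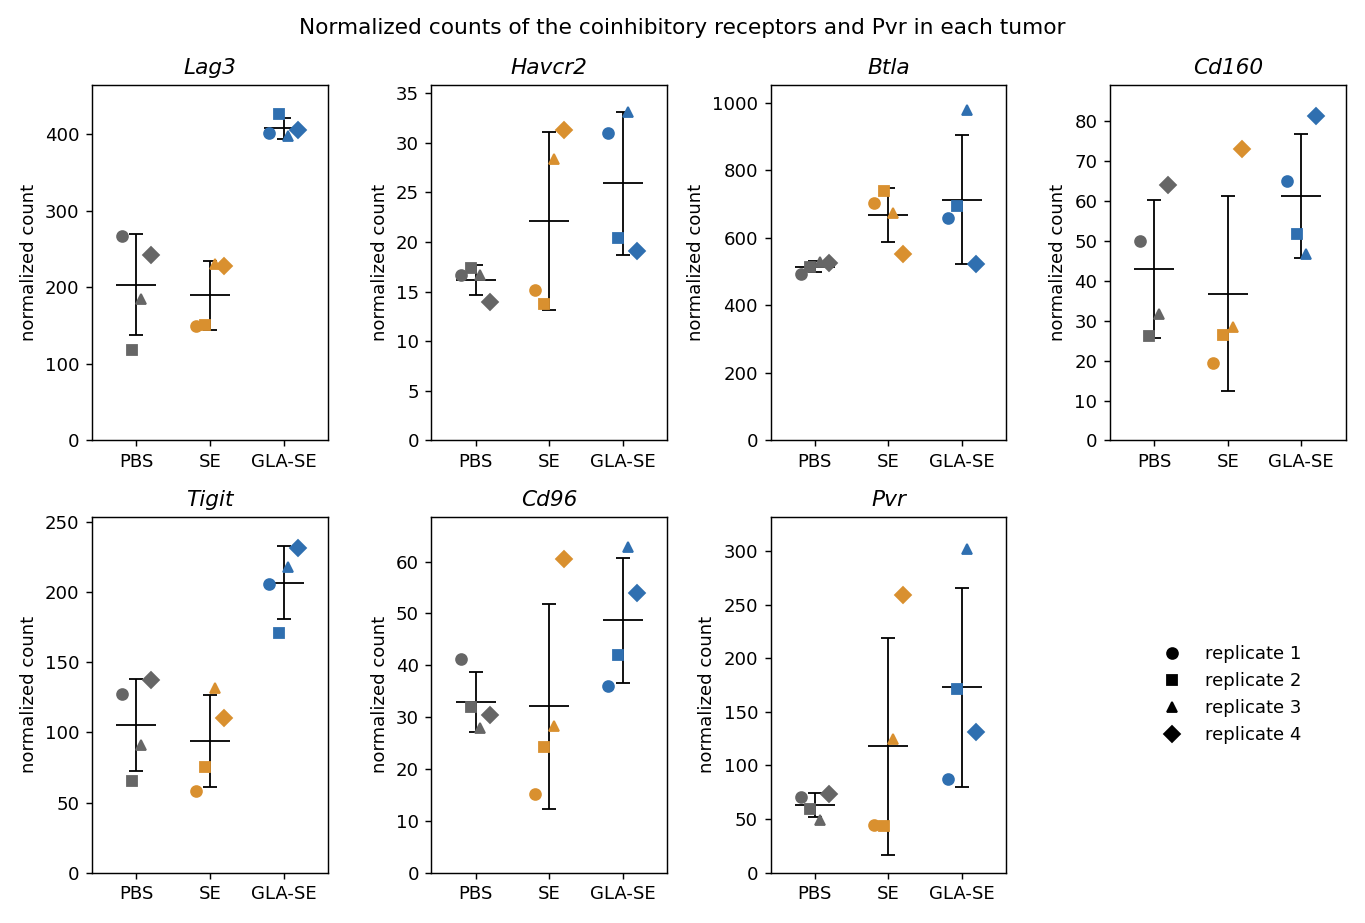
Normalized counts (vertical axis, linear, scaled to the reference genes) of the 7 genes in each tumor of the PBS, SE and GLA-SE groups; symbols mark replicates, horizontal lines the group mean and error bars the SD (n = 4). Lag3 and Tigit are the 2 genes for which the GLA-SE tumors, at 397 to 427 and 171 to 232, lie above all PBS and SE tumors, while SE replicates 3 and 4 are the high SE tumors of Havcr2 and Pvr.

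SE against PBS asks what the emulsion did without agonist. By edgeR 0 of the 7 genes were called, as were 0 of the 750 (0%). At an unadjusted p under 0.05 there was 1 of the 7, Btla, and 134 of 750 genes (17.9%). DESeq2 called 1 of the 7, also Btla, but gave no adjusted p for Havcr2 and Cd96, and it called 47 genes higher and 6 lower of 750, 163 of which had no adjusted p. The median log2 fold change of the 7 was −0.07, against 0.51 over the panel. Lag3 (−0.10), Tigit (−0.17), Cd96 (−0.07) and Cd160 (−0.26) lay at percentiles 8, 6, 9.07 and 4.13 of the panel's log2 fold changes.

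Every SE tumor had more Btla than every PBS tumor, as for 8% of all genes. The means were 668 ± 81.0 (SD, n = 4) and 515 ± 16.7 normalized counts, which put the log2 fold change at 0.38 with a standard error of 0.14 (adjusted p = 0.256 by edgeR and 0.0206 by DESeq2). The value was 0.12 with panel median scaling, 0.06 with TMM, 0.08 without rescaling and 0.84 with T cell marker scaling, none of them called by edgeR. The groups overlapped in the deposited counts. Pvr and Havcr2 had log2 fold changes of 0.89 (95% interval −0.50 to 2.29) and 0.42 (95% interval −0.33 to 1.18). For both genes SE replicates 1 and 2 were near or below the PBS tumors and replicates 3 and 4 above them. Without SE replicate 4 the Pvr value was 0.16 and that of Havcr2 0.22. Cd160 and Cd96 fell as well, to −0.81 and −0.55, SE replicate 4 being their highest SE tumor, and Lag3 and Tigit were −0.20 and −0.26. None of these passed the test by edgeR. After scaling to the T cell markers 0 of the 7 were called by edgeR, 0 at an unadjusted p under 0.05, against 5.51% of genes higher and 0.134% lower.

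GLA-SE against SE asks what the agonist added to the emulsion. Here 0 of the 7 genes passed the adjusted threshold by edgeR, where 2.13% of the panel (16 genes) was called higher. At an unadjusted p under 0.05 there were 2 of the 7, Lag3 and Tigit, and 139 of 750 genes (18.5%). DESeq2 called the same 2 genes, among 101 higher and 7 lower of 750. Both had every GLA-SE tumor above every SE tumor, as for 14.7% of all genes, and their log2 fold changes ranked at percentiles 86.3 and 87.2 of the panel. In the deposited, unscaled counts Lag3, Tigit, Cd96 and Cd160 had every GLA-SE tumor above every SE tumor, as did 24.4% of all genes.

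Lag3 had 408 ± 13.3 normalized counts in GLA-SE tumors and 189.8 ± 45.2 in SE tumors (SD, n = 4), which put the log2 fold change at 1.10 with a standard error of 0.26 (95% interval 0.51 to 1.70, adjusted p = 0.0802 by edgeR). Its adjusted p ranged from 1.82e-05 (DESeq2) to 0.913 (edgeR, T cell marker scaling) over the alternatives, with 0.0318 from edgeR when all 12 tumors entered 1 fit. Tigit had 207 ± 25.9 and 93.9 ± 33.1, which put the log2 fold change at 1.14 with a standard error of 0.36 (95% interval 0.32 to 1.96, adjusted p = 0.15 by edgeR and 0.00492 by DESeq2). Of the other genes, Cd160 had a log2 fold change of 0.76 (95% interval −0.31 to 1.84), Cd96 0.63 (−0.41 to 1.67), Pvr 0.56 (−1.0 to 2.12), Havcr2 0.25 (−0.60 to 1.10) and Btla 0.10 (−0.44 to 0.63). The median of the 7 was 0.63, against 0.25 over the panel. Without SE replicate 4, 2 of the 7 were called by edgeR, Lag3 (1.203, adjusted p = 0.0245) and Cd160 (1.32, adjusted p = 0.0357), among 104 genes higher, and Tigit was at 1.23 (adjusted p = 0.0546). Pvr was then at 1.29 (adjusted p = 0.151 by edgeR), and without GLA-SE replicate 3 at 0.15.

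**Figure D2:**
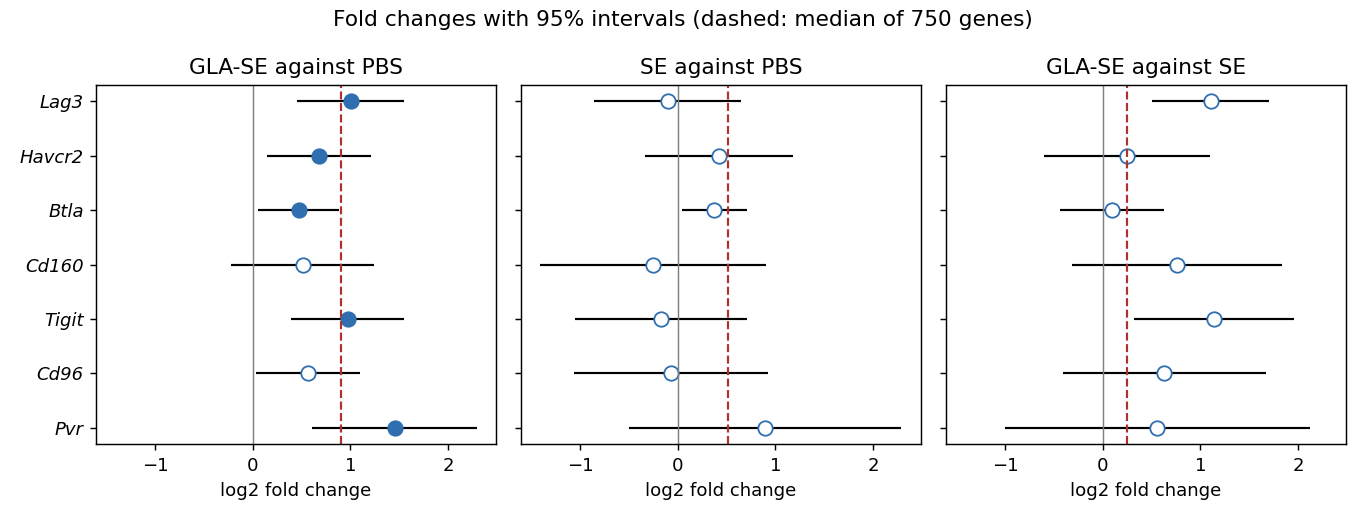
Log2 fold changes (horizontal axis, scaled to the reference genes) of the 7 genes in the 3 comparisons, with 95% intervals from edgeR; filled circles passed an adjusted p of 0.05, open circles did not, and the dashed line is the median of the 750 genes tested. Lag3 and Tigit lie to the right of the panel median in GLA-SE against SE (1.10 and 1.14, with 0.25 for the panel) and to its left in SE against PBS; with T cell marker scaling the former are −0.09 and −0.04 (panel median −0.76) and the latter 0.34 and 0.22 (panel median 0.69).

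SE replicate 4 had the highest T cell marker level of the 12 tumors, a geometric mean of 503 normalized counts, against 229 to 333 in GLA-SE tumors, 91.0 to 259 in PBS tumors and 73.9 to 119 in the other SE tumors. Its Lag3 (227) and Tigit (111) lay below every GLA-SE tumor. Per 100 T cell marker counts it had 45.2 of Lag3 and 21.99 of Tigit, whereas SE replicates 1 to 3 had 182 to 203 and 79.3 to 110.0. GLA-SE tumors had 119 to 187 of Lag3 and 65.4 to 77.3 of Tigit on that scale, and PBS tumors 103 to 140.0 and 49.3 to 72.2. Cd160 was at its highest SE value in this tumor, at 73.0, but per 100 T cell marker counts it too was lower there, at 14.5 against 23.7 to 31.8 in SE replicates 1 to 3 and 14.0 to 27.2 in GLA-SE tumors. Cd96 was at 12.03 against 20.5 to 29.3 and 12.8 to 18.8. Havcr2 (6.22 against 16.6 to 23.7 in SE replicates 1 to 3), Btla (110 against 565 to 954) and Pvr (51.4 against 52.2 to 105) were lowest there too. Relative to the T cell markers 0 of the 7 genes were called in GLA-SE against SE by edgeR, where 0% of 744 genes were called higher and 2.28% (17) lower. At an unadjusted p under 0.05 there was 1 of the 7, Btla at −1.32, against 236 of 744 genes. The log2 fold changes of Lag3 and Tigit on this scale were −0.09 (95% interval −1.10 to 0.92) and −0.04 (−1.06 to 0.97), with the panel median at −0.76.

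**Figure D3:**
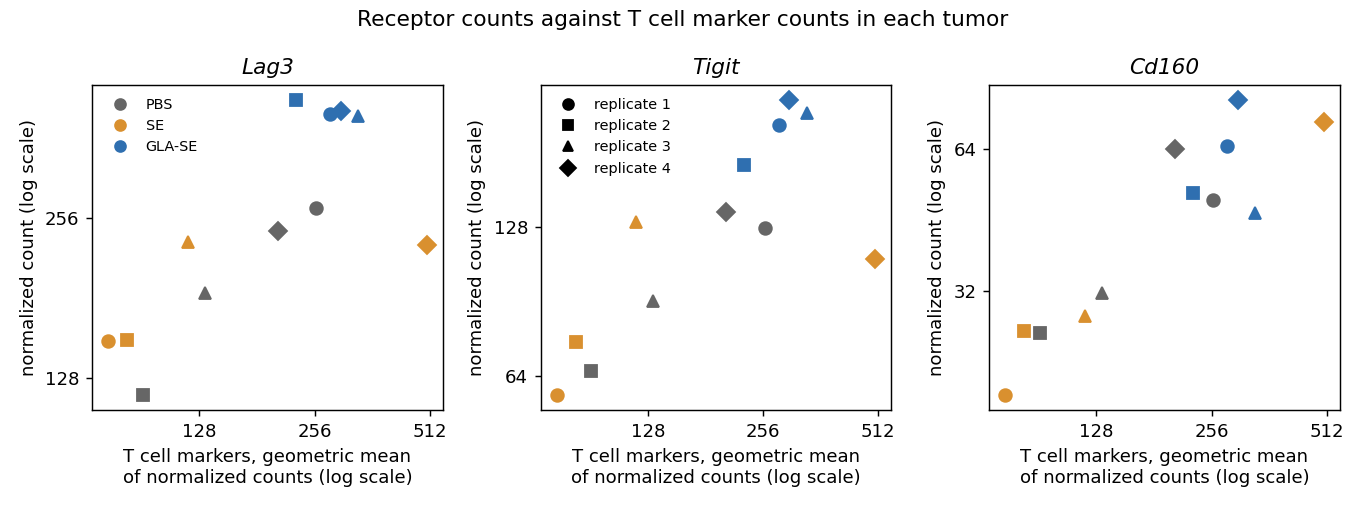
Normalized counts of Lag3, Tigit and Cd160 (vertical axes, log scale) against the geometric mean of the 6 T cell markers (horizontal axis, log scale) in the 12 tumors; colors mark groups and symbols replicates. SE replicate 4, at 503 on the horizontal axis, lies below every GLA-SE tumor for Lag3 (227) and Tigit (111) but near the top for Cd160 (73.0).

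Other marker lists were compared in GLA-SE against PBS tumors, where 68.4% of all genes were called higher and the panel median was 0.90. NK cell markers (Ncr1, Klrb1c and Klrd1) summed to 154 to 406 normalized counts in PBS tumors, 562 to 672 in GLA-SE tumors and 149 to 580 in SE tumors. Of these markers 2 of the 3 were called higher, and the remaining marker had a log2 fold change of −0.26 without passing. Of the T cell markers 3 of 6 were called higher, with a median log2 fold change of 0.78. Cd8a and Cd8b1 were higher by 0.86 and 0.87 without passing (2 of 2 at an unadjusted p under 0.05, and both called by DESeq2). All 6 monocyte and macrophage markers, 3 of 5 neutrophil markers, 7 of 7 endothelial and fibroblast markers and 1 of 3 dendritic cell markers were higher, and 2 of 8 B cell markers were lower. The part of these cells in the receptor values was not tested beyond the T cell marker scaling.

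The 9 partner genes on the panel are ligands of the receptors, except Tnfsf14, which is the other partner of HVEM. Relative to the reference genes, 8 of the 9 rose in GLA-SE against PBS tumors (68.4% of all genes), with a median log2 fold change of 1.08. For LAG-3, the MHC class II genes H2-Aa, H2-Ab1 and H2-Eb1 were higher by 0.95, 1.08 and 1.15 on the log2 scale. H2-Aa had 35830 to 44430 normalized counts in PBS tumors, 53367 to 61225 in SE tumors and 64531 to 114723 in GLA-SE tumors, so that the 3 groups did not overlap, and H2-Ab1 was ordered the same way (9983 to 12983, 14937 to 18174.5 and 20799 to 35193). Of all genes, 8% had every SE tumor above every PBS tumor and 14.7% every GLA-SE tumor above every SE tumor. In the deposited counts SE tumors overlapped both other groups for both genes. The log2 fold change of H2-Aa in SE against PBS tumors was 0.11 with panel median scaling and 0.07 with TMM. For H2-Eb1 the GLA-SE tumors (14740 to 24245) were also above all others, while PBS (6944 to 9589.9) and SE tumors (9535 to 13679) met at their edges. Lgals3 rose by 0.99, from 4949 to 6715 in PBS tumors to 10103 to 12244 in GLA-SE tumors, while SE tumors lay on both sides, at 4020, 3185, 26238 and 34828.

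For the other receptors, HVEM (Tnfrsf14) went from 274 to 385 normalized counts in PBS tumors to 613 to 791 in GLA-SE tumors, which put the log2 fold change at 1.08 with a standard error of 0.16 (adjusted p = 0.000602 by edgeR). LIGHT (Tnfsf14) had the largest fold change of the partners, 1.66 (standard error 0.31, adjusted p = 0.00212 by edgeR), with 22.2 to 37.2 in PBS tumors and 50.0 to 114 in GLA-SE tumors. Nectin-2 (Pvrl2) rose by 1.18 (standard error 0.21, adjusted p = 0.00172 by edgeR), from 103 to 136 in PBS tumors to 211 to 370 in GLA-SE tumors, with the SE tumors at 169, 128, 254 and 469. Ceacam1, a ligand of TIM-3, rose by 0.86, and Hmgb1, the other TIM-3 ligand measured, had its log2 fold change at −0.19 with a standard error of 0.09 (adjusted p = 0.0896 by edgeR). The 8 calls depended on the scaling. With panel median scaling 8 of the 9 lay below 0, all but Tnfsf14 (0.37), with 0 called higher and 3 lower by edgeR (H2-Aa, Lgals3 and Hmgb1). With TMM Ceacam1 and Hmgb1 lay below 0, with 1 called higher (Tnfsf14) and 1 lower (Hmgb1). Per T cell marker count the same 2 genes lay below 0 and 0 of the 9 were called by edgeR (1 at an unadjusted p under 0.05).

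In the other comparisons 0 of the 9 partners passed by edgeR. At an unadjusted p under 0.05 there were 4 in SE against PBS tumors (17.9% of all genes) and 3 in GLA-SE against SE tumors (18.5%). DESeq2 called 2 in each, beside 47 higher and 6 lower of all genes in the former and 101 and 7 in the latter. SE replicate 4, and to a lesser extent replicate 3, were the high SE tumors of Lgals3, Ceacam1, Tnfrsf14, Tnfsf14 and Pvrl2, as of Pvr.

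**Figure D4:**
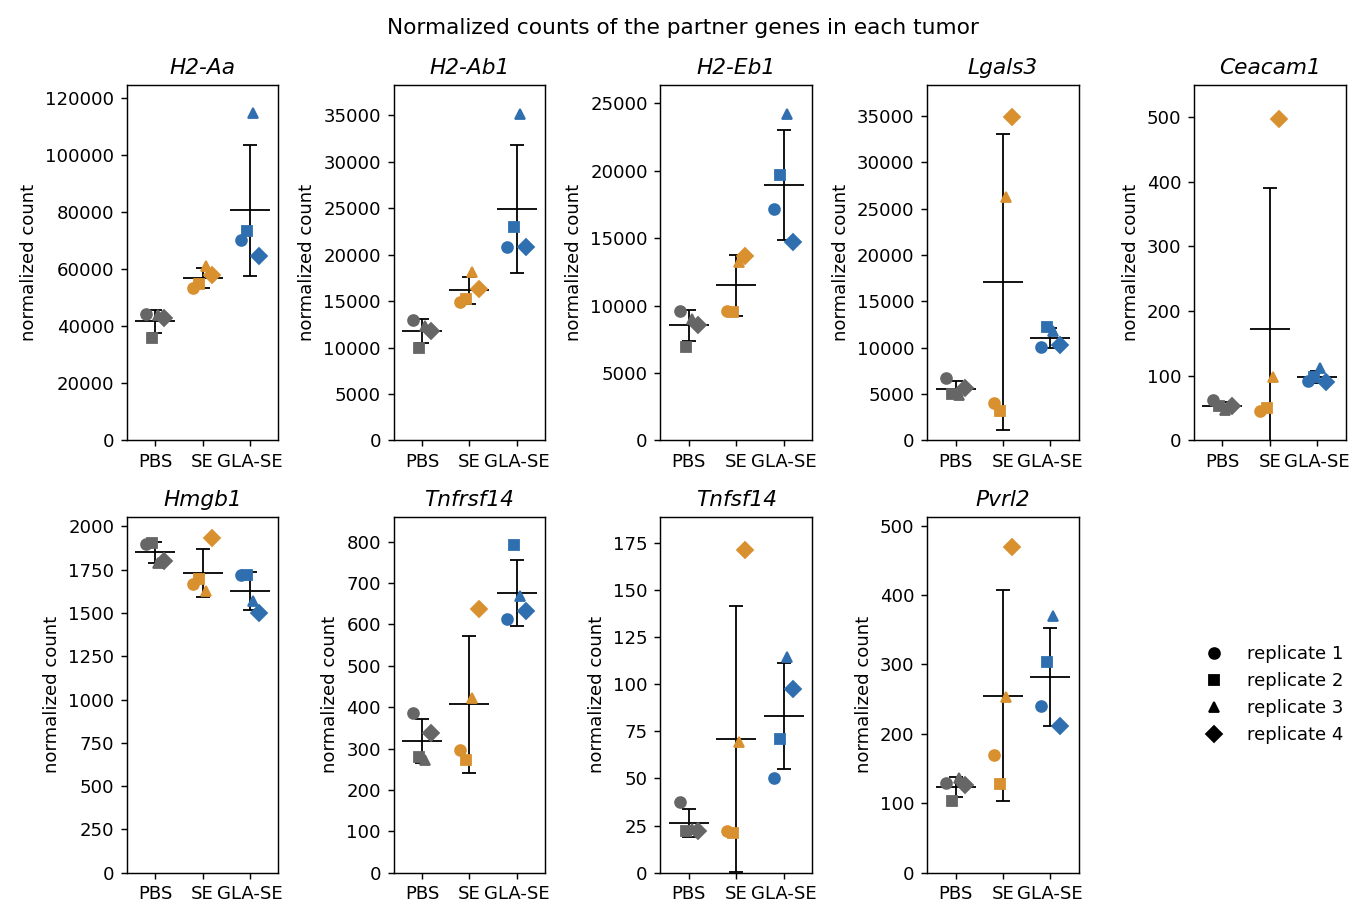
Normalized counts (vertical axes, linear, scaled to the reference genes) of the 9 partner genes in each tumor; symbols mark replicates, horizontal lines the group mean and error bars the SD (n = 4), cut at 0 where they reach below it. Every GLA-SE tumor is above every PBS tumor for all but Hmgb1, as for 63.7% of all genes tested. SE replicate 4 reaches the highest level of all tumors for Lgals3 (34828), Ceacam1 (496), Tnfsf14 (171) and Pvrl2 (469).

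Among 6 further inhibitory receptors, all 6 were higher in GLA-SE against PBS tumors by edgeR (68.4% of all genes), with a median log2 fold change of 1.37, but 0 of the 6 were called with panel median, TMM or T cell marker scaling, where the medians were 0.12, 0.48 and 0.65. Cd244 lay below 0 with all 3 of these scalings and Cd200r1 with the first. They were Pdcd1 (PD-1, 1.30), Ctla4 (1.70), Cd244 (0.80), Klrg1 (1.56), Klrc1 (NKG2A, 1.44) and Cd200r1 (0.91). Cd244 had few deposited counts, 12 to 21 in PBS tumors and 21 to 35 in GLA-SE tumors, and these overlapped. In GLA-SE against SE tumors 0 of the 6 passed by edgeR, 4 had an unadjusted p under 0.05 (18.5% of all genes), and DESeq2 called 4 (101 higher and 7 lower of all genes). Their log2 fold changes ran from −0.65 (Cd200r1) to 1.89 (Pdcd1). In SE against PBS tumors 0 of 6 passed by edgeR, 0 had an unadjusted p under 0.05 and DESeq2 called 0.

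The likeness of patterns over the 12 tumors was taken as the root mean square difference of log2(normalized count + 1), each gene centred on its own mean, among 676 other genes with a mean of at least 20. Lag3 and Tigit were each other's nearest gene, at 0.18, where Lag3 alone varied by 0.61. Next to Lag3 came Klrk1 (NKG2D, 0.22), and next to Tigit Klrk1 (0.26) and Fasl (0.30). The nearest genes of Btla were Cd200 (0.12), H2-Ob (0.15) and Prkcd (0.17). For Havcr2 they were Itga2b (0.17), Tbk1 (0.23) and Map2k4 (0.24), and for Cd96 Atg7 (0.30), Ifngr1 (0.30) and Myd88 (0.32). Cd160 lay nearest to Cd8b1 (0.32), Cd8a (0.32) and Spn (0.35), and Pvr to Irak2, Ifih1 and Plaur (0.25 each). All points share the tumors and their scaling, so these values are descriptions.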

How the data were processed

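The authors deposited whole-number counts of barcoded probes for 770 genes in 12 tumors. The methods describe normalization in nSolver, but totals and reference genes differ between tumors, so they were taken as raw. The assay involves no read alignment. Groups came from the sample labels, where replicate numbers name different mice. Of 20 reference genes, geNorm kept 16 over the 12 tumors, and each tumor was scaled to their geometric mean. The other 750 genes were tested with edgeR 4.0.16 in R 4.3.3 (quasi-likelihood, the 8 tumors of 2 groups, no filter, no covariates, Benjamini-Hochberg, threshold 0.05). Alternatives used DESeq2 1.42.0, limma 3.58.1 with pseudocounts of 1 and 10, a filter of 20 counts in 4 of 8 tumors, other scalings including 6 T cell markers, the replicate number as a block, and leaving out each tumor. The fits were also run on simulated counts with as many genes raised as lowered and the reference genes left as observed. This did not test the choice of scaling. Figures used matplotlib 3.10.9 in Python 3.11.15. The members, partner genes, other receptors and marker lists were chosen with earlier results of these data known. Named genes are all members and partners, the other receptors, and each member's 3 nearest genes, of which 1 is not reported here. Single marker genes and the motifs fall outside this rule. With 4 tumors per group, counts under about 20 and the spread between mice limit precision.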

Additional observations from a re-analysis of the deposited data

Results flagged for a closer look

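In groups of 4 tumors, 66 sets of values (the 7 members, 9 partners and 6 other receptors in each group) were screened for values that lie apart (Dixon's ratio of the gap to the group's range), and 7 sets held 1, where chance gives about 5% of groups, or 3.3. Among the members this was Cd160 in SE replicate 4, at 73.0 normalized counts (19.3 to 28.3 in the other SE tumors). Ceacam1 was at 496 in the same tumor (45.5 to 97.9 in the others). GLA-SE replicate 3 was far above the other GLA-SE tumors for H2-Ab1, at 35193 (20799 to 22977), and for Ctla4, at 355 (150.1 to 179.7). PBS replicate 1 was far above the other PBS tumors for Tnfsf14, at 37.2 (22.2 to 23.4), Klrg1, at 66.6 (41.5 to 43.8), and Cd200r1, at 155 (123 to 128).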

How the results depend on the processing

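Precision was limited by 4 tumors a group and by low counts of Havcr2, Cd96 and Cd160, and of Cd244 among the other receptors. The cause of the changes below was not tested. Numbers in pairs are genes higher and lower.

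In GLA-SE against PBS tumors, members called were 2 with panel median scaling, both lower (61 and 307 genes), 1 with TMM, lower (148 and 168), 0 with T cell marker scaling (52 higher), 2 without rescaling (17 lower), 2 with all 12 tumors in 1 fit (255 and 0) and 3 with the replicate number as a block. All 20 reference genes gave 8 lower. Panel median scaling gave log2 fold changes of −0.23 for Lag3, −0.62 for Havcr2, −0.27 for Tigit, −0.86 for Btla, −0.73 for Cd96 and −0.70 for Cd160. TMM gave −0.24 for Havcr2, −0.47 for Btla, −0.34 for Cd96 and −0.35 for Cd160, and T cell marker scaling −0.24, −0.48, −0.32 and −0.24. Leaving out a tumor gave 3 to 5 members (3 without PBS replicate 2, 3 or 4 or GLA-SE replicate 3), 440 to 501 genes higher and 3 to 5 lower (5 without GLA-SE replicate 3).

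In SE against PBS tumors, T cell marker scaling gave 41 and 1 genes, and DESeq2 1 member and 47 and 6 genes. Havcr2 turned to −0.14 with panel median scaling, −0.089 with TMM and −0.039 without rescaling, and T cell marker scaling turned Lag3 to 0.34 and Tigit to 0.22. Without a tumor, 0 genes were called by edgeR, and signs turned for Lag3 (0.058 without PBS replicate 1), Cd96 (0.060 without PBS replicate 1, 0.18 without SE replicate 1, 0.034 without SE replicate 2), Cd160 (0.0054 without PBS replicate 4) and Tigit (0.0040 without SE replicate 1). Ranges were −0.29 to 0.058 for Lag3, −0.55 to 0.18 for Cd96, −0.81 to 0.0054 for Cd160 and −0.38 to 0.0040 for Tigit.

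In GLA-SE against SE tumors, genes higher were 0 with panel median scaling, 3 with TMM and 0 with the replicate block, and T cell marker scaling gave 0 and 17. Members called were 2 without rescaling (88 and 1 genes), 2 by DESeq2 (101 and 7) and 1 with all 12 tumors in 1 fit (77 and 2). Panel median scaling, TMM and T cell marker scaling gave −0.49, −0.12 and −0.85 for Havcr2 and −0.98, −0.49 and −1.32 for Btla. Cd96 was −0.033 with panel median and −0.31 with T cell marker scaling, which also gave −0.090 for Lag3, −0.044 for Tigit, −0.13 for Cd160 and −0.16 for Pvr. Leaving out a tumor gave 0 to 2 members, 4 to 104 genes higher (4 without GLA-SE replicate 2 or 4 or SE replicate 3, then 7 and 9 when SE replicate 2 or 1 was left out, 104 without SE replicate 4) and 0 to 1 lower, with Btla from −0.095 (without GLA-SE replicate 3) to 0.22.

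Deviations of tumors of the same number were weakly correlated (−0.25 to 0.18, best match in 4 of 12). Whether these tumors share more than a number cannot be told from such values. Beside the counts above, the block removed the calls of Havcr2 (adjusted p = 0.0593 by edgeR) and Btla (0.0876) in GLA-SE against PBS tumors. DESeq2 gave no adjusted p for 7, 163 and 62 genes in GLA-SE against PBS, SE against PBS and GLA-SE against SE.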
